A study of Mus musculus with 6 samples.

Results

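The Bcl2 family decides whether the mitochondrial outer membrane stays intact, and 10 of its genes were followed here in DN3a thymocytes. They were chosen by name: the pro-survival genes Bcl2, Bcl2l1, Bcl2l2 and Mcl1, the effectors Bax and Bak1, and the BH3-only genes Bcl2l11, Bmf, Bad and Bid. The deposited table listed 41254 gene symbols and 100144 transcripts, of which these 10 genes held 48 transcripts. All 10 passed the filter on low counts, and none lay at a locus whose estimate had failed.

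DN3a cells are immature T cell precursors without CD4 and CD8 that rearrange the T cell receptor beta locus. RNA came from adult C57BL/6 mice, of genotype Tg_Cd2_GATA3 in 3 libraries and wild type in 3 libraries. GATA3 is a zinc finger transcription factor of the T lineage, and the study's title concerns its overexpression. The labels do not describe the elements that drive the transgene, the founder lines or any pooling of animals. They also leave unsaid whether libraries stem from different mice, and p-values then measure only the spread between these samples, which may be partly technical.

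The libraries held 39022281 to 46985605 fragments. Transgenic replicate 3 and wild-type replicate 1 carried 16840 and 18522 fragments of Y-linked genes, against 16 to 26 in the other 4 libraries. Within each group the libraries thus differed in Y-linked RNA and cannot all stem from the same RNA. Gata3 itself stood at 57.9 ± 4.05 CPM in transgenic and 43.6 ± 5.48 CPM in wild-type libraries (SD, n = 3 each), a log2 fold change of 0.41 ± 0.10 (SE) that did not pass the threshold (edgeR, adjusted p = 0.170). It was called by DESeq2 (adjusted p = 0.00753), by edgeR with a covariate for Y-linked RNA (adjusted p = 0.0416) and by edgeR without wild-type replicate 1 (adjusted p = 0.0255). CPM are fragment counts scaled to a common library size. All 9 listed genes of the DN3a and early T stage were detected. Of these Notch1, the receptor that drives the T lineage, had 1802 ± 38.7 CPM in transgenic and 1585 ± 112 CPM in wild-type libraries (log2 fold change 0.19 ± 0.06 SE), was not called by edgeR (adjusted p = 0.219) and was called by DESeq2 (adjusted p = 0.0397). Il2ra, which encodes CD25, had 339 ± 9.49 CPM in transgenic and 381 ± 15.2 CPM in wild-type libraries (log2 fold change -0.17 ± 0.06 SE) and was called by neither. The groups did not overlap for either gene. The 4 NK and innate lymphoid markers summed to 0.152 to 0.434 CPM in transgenic and 0.0 to 0.473 CPM in wild-type libraries, with Ncr1 and Gzmb at 0, and the 6 erythroid markers to 2.59 to 6.78 CPM in transgenic and 1.097 to 4.05 CPM in wild-type libraries. Of the 7 B cell markers Pax5 was at 0, and their sums of 134 to 151 CPM in transgenic and 148 to 172 CPM in wild-type libraries came almost wholly from Ighm and Cd79b. The myeloid sums were 21.6 to 24.9 CPM in transgenic and 17.8 to 22.5 CPM in wild-type libraries, mostly Lyz2, with S100a8 at 0, and those of thymic stroma 76.9 to 92.0 CPM in transgenic and 75.1 to 85.3 CPM in wild-type libraries, mostly Epcam, with Pdgfra at 0.

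Pro-survival proteins hold the effectors Bax and Bak in check. BH3-only proteins, induced by stress or by loss of growth factors, bind into a groove of the pro-survival proteins and free the effectors, which then open pores and release cytochrome c. In the thymus, cytokine and receptor signals keep this balance on the side of life, Mcl1 and Bcl2 are known to support early T cell precursors, and Bim, the product of Bcl2l11, is known for killing self-reactive thymocytes.

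The promoters of Bcl2l11, Bmf and Mcl1 are shown because these 3 members had an unadjusted p under 0.05 in edgeR. Each is 250 bases before to 50 bases after the start in RefSeq (GRCm38.p6), 5′ to 3′ on the gene's strand. Capitals mark the 50 bases from the start onward and, in Bcl2l11, a GTAAACA that begins 227 bases before it.
Bcl2l11, chr2:128125788-128126087, plus strand: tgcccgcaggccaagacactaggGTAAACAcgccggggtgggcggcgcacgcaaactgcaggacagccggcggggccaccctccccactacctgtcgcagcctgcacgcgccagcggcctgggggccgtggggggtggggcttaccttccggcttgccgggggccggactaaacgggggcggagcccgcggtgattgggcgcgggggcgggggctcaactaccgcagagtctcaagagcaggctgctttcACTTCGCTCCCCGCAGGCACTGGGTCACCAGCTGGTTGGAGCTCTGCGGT
Bmf, chr2:118549637-118549936, minus strand: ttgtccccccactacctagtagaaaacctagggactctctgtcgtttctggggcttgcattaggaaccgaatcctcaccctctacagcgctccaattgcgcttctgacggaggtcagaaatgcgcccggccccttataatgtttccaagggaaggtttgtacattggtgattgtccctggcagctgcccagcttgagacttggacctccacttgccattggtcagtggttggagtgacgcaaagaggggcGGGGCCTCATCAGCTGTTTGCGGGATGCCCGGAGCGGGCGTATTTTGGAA
Mcl1, chr3:95658471-95658770, plus strand: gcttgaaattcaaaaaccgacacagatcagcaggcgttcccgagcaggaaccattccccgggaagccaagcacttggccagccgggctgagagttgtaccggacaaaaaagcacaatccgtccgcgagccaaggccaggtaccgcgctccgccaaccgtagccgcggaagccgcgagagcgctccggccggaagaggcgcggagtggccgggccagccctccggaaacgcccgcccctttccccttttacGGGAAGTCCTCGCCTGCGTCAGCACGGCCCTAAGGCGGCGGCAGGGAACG

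GATA letters were searched on both strands as AGATAA or AGATAG or TGATAA or TGATAG, and the matches found do not overlap each other. None of the 3 promoters above held a match. RefSeq listed 16 promoters for the 10 members, and 2 of them held a match, against 29.8% of all 32851 promoters of the same length. These were a minor Bcl2l1 promoter, with AGATAA beginning 41 bases before the start and AGATAG 35 bases after it, and the Bid promoter, with TGATAG on the strand opposite to the gene 42 bases before the start. GTAAACA, letters bound by forkhead factors such as FOXO proteins, was searched after the expression data had been seen. It occurred in 1 of the 16 member promoters and in 3.65% of all promoters. Transcripts were credited to a start if they began within 100 bases of it. In Bcl2l11 the start shown covered transcripts with 89.4% of the gene's FPKM in transgenic and 86.1% in wild-type libraries. In Bmf the start covered 80.5% in transgenic and 80.8% in wild-type libraries, and in Mcl1 92.4% in transgenic and 88.6% in wild-type libraries. The Mcl1 transcript so credited, Mcl1-201, begins at 95658788 in GENCODE M21. That lies beyond the end of the Mcl1 sequence shown, at 95658770. For Bak1 the only start searched covered 16.8% of its FPKM in transgenic and 18.1% in wild-type libraries. The start of its main transcript, Bak1-202, was not among the 16. The matches are letters in a window and not measured binding.

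Levels were compared between genes in FPKM, fragments scaled to transcript length and library size, summed over each gene's transcripts. Mcl1, a short-lived pro-survival protein, was the highest member in every library, at 158, 146 and 152 FPKM in the transgenic libraries and at 146, 126 and 139 FPKM in the wild-type libraries, each in the order of replicates 1, 2 and 3. It supplied 78.4 ± 0.116% of the pro-survival FPKM in transgenic and 77.1 ± 1.95% in wild-type libraries (SD, n = 3 each). Bax followed with 42.2 ± 2.97 FPKM in transgenic and 44.5 ± 4.19 FPKM in wild-type libraries. In mean FPKM over all libraries Mcl1 stood at percentile 96.2 of the tested genes, Bax at 84.7 and Bmf at 79.0, and the lowest member, Bcl2l2, at 46.1.

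Below Bax the order was close. In transgenic libraries Bmf ranged over 30.5 to 42.5 FPKM and overlapped Bax, at 40.2 to 45.7 FPKM. In wild-type libraries Bmf, at 23.1 to 33.2 FPKM, lay below Bax, at 39.9 to 48.1 FPKM, and overlapped Bcl2, at 21.9 to 24.4 FPKM. Bcl2, Bad, Bcl2l11, Bid and Bak1 formed a middle group with mean FPKM of 23.6, 22.3, 19.9, 16.9 and 16.3 in transgenic libraries and of 23.1, 20.7, 16.8, 17.4 and 18.7 in wild-type libraries. Each neighbour in this middle group overlapped the next in range. Bcl2l1, which encodes Bcl-xL, averaged 10.6 FPKM in transgenic and 9.93 FPKM in wild-type libraries, and Bcl2l2, which encodes Bcl-w, 7.60 FPKM in transgenic and 7.56 FPKM in wild-type libraries. The ranges of these last members did not meet in either group, and in wild-type libraries the gap was narrow, the lowest Bcl2l1 value being 8.45 FPKM and the highest Bcl2l2 value 8.32 FPKM.

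**Figure D1:**
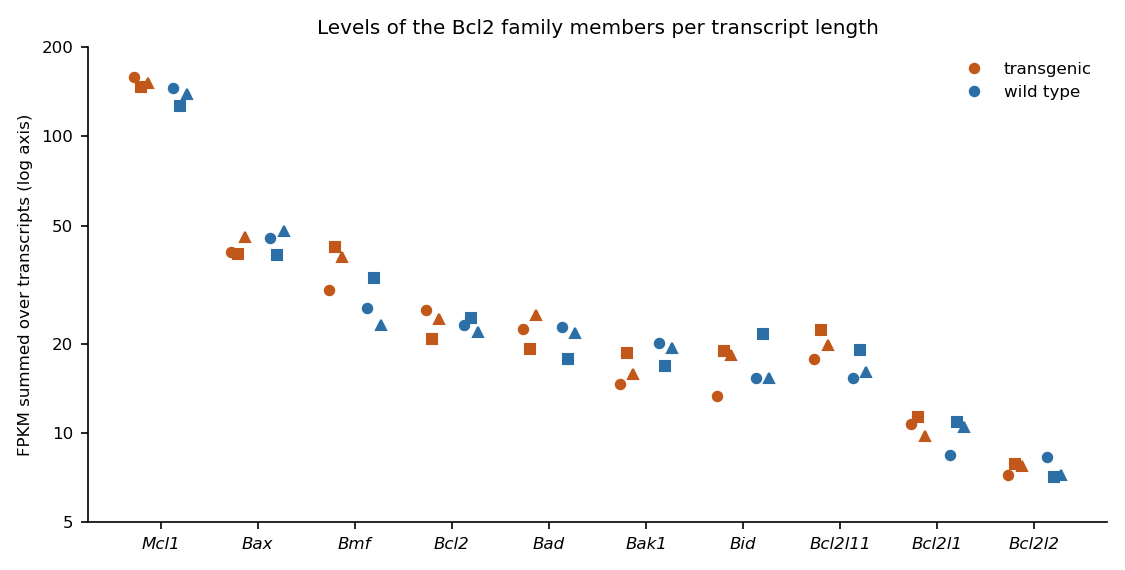
FPKM summed over transcripts (y axis, log scale) of each member in the 3 transgenic libraries (left, orange) and the 3 wild-type libraries (right, blue), with a circle, square and triangle for replicates 1, 2 and 3. Mcl1 lies at 126 to 158 FPKM, above every other member, and Bcl2l2 lies lowest, at 7.13 to 8.32 FPKM.

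Summed FPKM can lean on short transcripts with few fragments. Bcl2l2-202, a retained-intron transcript of 399 bases, took 13.2 ± 10.4% of the Bcl2l2 FPKM in transgenic and 13.0 ± 9.44% in wild-type libraries with 1.11 to 14.0 fragments in transgenic and 5.06 to 19.0 fragments in wild-type libraries. The fold changes and tests of genes and transcripts in edgeR and DESeq2 therefore use fragments, while sums and shares by role or transcript are given in FPKM unless CPM are named. Each member had 740 to 17863 fragments in a library.

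In the comparison of transgenic with wild-type cells, no member passed the threshold over all genes (edgeR, adjusted p under 0.05), and 2 of 14653 genes did, 0.0136% of them. The 3 members at an unadjusted p under 0.05, Bcl2l11, Mcl1 and Bmf, were all higher in transgenic libraries, 3 of 10 where 13.4% of all tested genes were at that level, 5.71% higher and 7.7% lower. In CPM the groups did not overlap for 2 of 10 members, Mcl1 and Bcl2l11, both higher. Of all tested genes 8.73% were without overlap in that direction, 10.1% in the other and 18.8% in either. DESeq2 called both of these, Mcl1 with an adjusted p of 0.0256 and Bcl2l11 with 0.0407, where 4.62% of the genes it adjusted over were called, 1.55% higher. limma on log2(FPKM + 0.5) called no member, with 1 at an unadjusted p under 0.05. In edgeR the share of all genes called was 1.76% without the libraries with Y-linked RNA, 1.75% with a covariate for that RNA and 3.32% without wild-type replicate 1, and no member was among them. The median log2 fold change of the 10 members was 0.02, beside 0.001 over all tested genes. Fewer cells of a type and less RNA per cell cannot be told apart in such bulk samples.

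**Figure D2:**
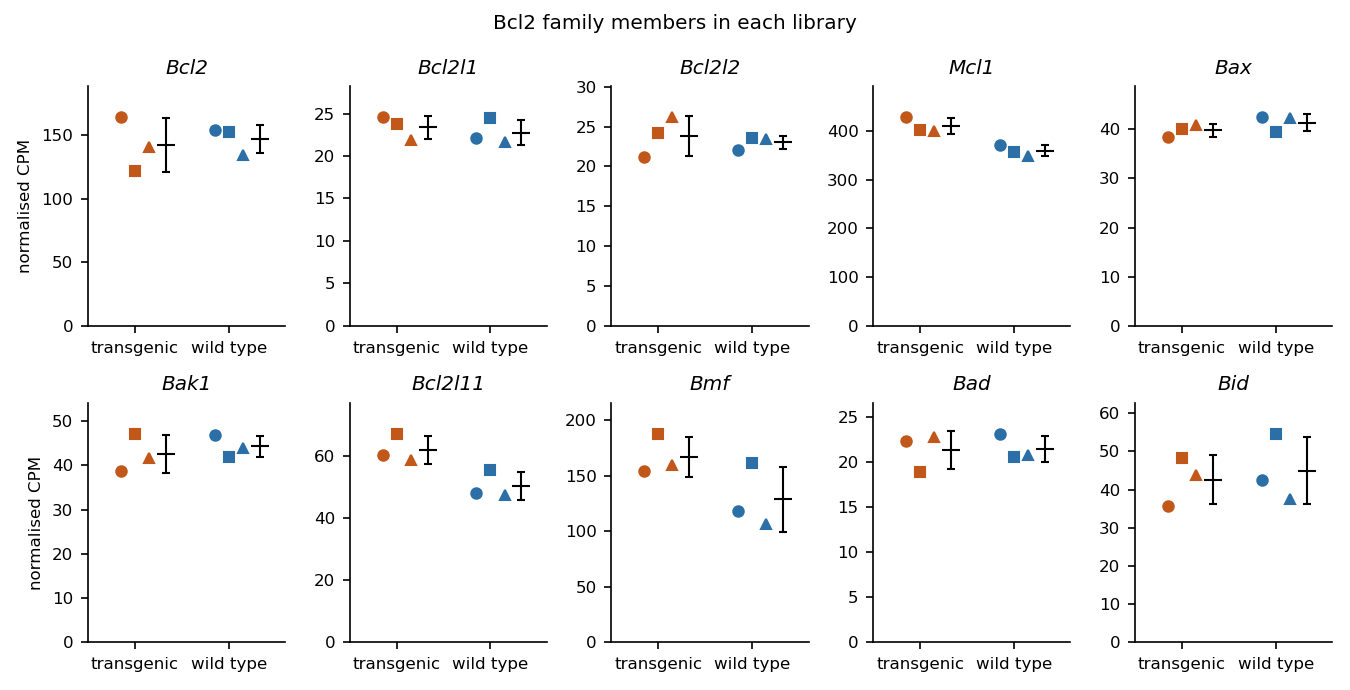
Normalised CPM (y axis, from 0) of each member in transgenic libraries (orange, left) and wild-type libraries (blue, right), with a circle, square and triangle for replicates 1, 2 and 3 and a bar for the mean ± SD. The groups separate for Mcl1, at 399.5 to 428 CPM in transgenic and 349 to 372 CPM in wild-type libraries, and for Bcl2l11, at 58.7 to 67.2 CPM in transgenic and 47.7 to 55.4 CPM in wild-type libraries.

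Among the pro-survival genes, Mcl1 (ENSMUSG00000038612, chromosome 3, 95658788 to 95663176, plus strand) had 428, 402 and 399.5 CPM in transgenic and 372, 358 and 349 CPM in wild-type libraries, again by replicate number. Every transgenic library lay above every wild-type library. The log2 fold change was 0.19 ± 0.06 (SE), 1.14-fold with a 95% interval of 1.05 to 1.24 (edgeR, adjusted p = 0.204). It was 0.10 between the libraries with Y-linked RNA, 1 in each group, and 0.23 between the others, 2 in each group.

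The other pro-survival genes gave values near 0. Bcl2 (ENSMUSG00000057329, chromosome 1, 106538178 to 106714274, minus strand) had 164, 122 and 141 CPM in transgenic and 154, 152 and 134 CPM in wild-type libraries, with transgenic replicates 1 and 2 at the extremes. Its log2 fold change was -0.05 ± 0.10 (SE), and the 95% interval of the fold ran from 0.829 to 1.13. Bcl2l1 (ENSMUSG00000007659, chromosome 2, 152780668 to 152831728, minus strand) had 24.6, 23.7 and 21.9 CPM in transgenic against 22.2, 24.4 and 21.6 CPM in wild-type libraries, with an interval of 0.887 to 1.19. Bcl2l2 (ENSMUSG00000089682, chromosome 14, 54883377 to 54888234, plus strand) had 21.2, 24.1 and 26.2 CPM in transgenic against 22.1, 23.5 and 23.4 CPM in wild-type libraries, with an interval of 0.882 to 1.21. The groups overlapped for all 3, and changes inside these intervals are not excluded.

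The effectors Bax and Bak1, which form the pores in the mitochondrial membrane, also overlapped between the groups. Bax (ENSMUSG00000003873, chromosome 7, 45461697 to 45466898, minus strand) had 38.4, 40.0 and 40.9 CPM in transgenic and 42.4, 39.4 and 42.2 CPM in wild-type libraries, a log2 fold change of -0.06 ± 0.08 (SE). It was the steadiest member, with a coefficient of variation of 3.95% over the 6 libraries. Bak1 (ENSMUSG00000057789, chromosome 17, 27019810 to 27029009, minus strand) had 38.6, 47.1 and 41.7 CPM in transgenic against 46.9, 42.0 and 44.0 CPM in wild-type libraries, a log2 fold change of -0.06 ± 0.09 (SE). The 95% intervals of the fold were 0.853 to 1.08 for Bax and 0.830 to 1.11 for Bak1.

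Among the BH3-only genes, Bcl2l11 (ENSMUSG00000027381, chromosome 2, 128126038 to 128162547, plus strand) gave a p of 0.00716, close to the 0.00723 of Mcl1 (edgeR, unadjusted). It stood at 60.5, 67.2 and 58.7 CPM in transgenic and 48.0, 55.4 and 47.7 CPM in wild-type libraries, without overlap. In FPKM its groups overlapped, at 17.8, 22.3 and 19.8 in transgenic and 15.3, 19.0 and 16.1 in wild-type libraries. The log2 fold change was 0.30 ± 0.09 (SE), 1.23-fold with a 95% interval of 1.07 to 1.42 (edgeR, adjusted p = 0.204). The libraries with Y-linked RNA differed by 0.29 on the log2 scale and the others by 0.31.

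Bmf (ENSMUSG00000040093, chromosome 2, 118528757 to 118549687, minus strand), whose protein shares with Bim the binding of dynein light chains, had 154, 188 and 159.6 CPM in transgenic and 118, 162 and 106 CPM in wild-type libraries. Wild-type replicate 2 lay above transgenic replicates 1 and 3, so the groups overlapped. The log2 fold change was 0.38 ± 0.14 (SE), 1.299-fold with a 95% interval of 1.05 to 1.61 (edgeR, adjusted p = 0.285). Leaving out wild-type replicate 2 gave 0.58 (adjusted p = 0.338 in edgeR), and leaving out wild-type replicate 3 gave 0.26 (adjusted p = 0.608). Within the libraries with Y-linked RNA it was 0.44 and within the others 0.35. In each group replicate 2 was the highest library for both Bmf and Bcl2l11.

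Bid and Bad were not separated between the groups. Bid (ENSMUSG00000004446, chromosome 6, 120891930 to 120916853, minus strand), which caspases cleave to link death receptors to mitochondria, had 35.7, 48.3 and 43.9 CPM in transgenic and 42.6, 54.6 and 37.6 CPM in wild-type libraries. Its spread was wide, and the 95% interval of the fold ran from 0.753 to 1.195. Bad (ENSMUSG00000024959, chromosome 19, 6941861 to 6951899, plus strand), a BH3-only protein inactivated by growth factor kinases, had 22.4, 18.9 and 22.8 CPM in transgenic against 23.1, 20.5 and 20.8 CPM in wild-type libraries. Its log2 fold change was -0.01 ± 0.11 (SE).

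**Figure D3:**
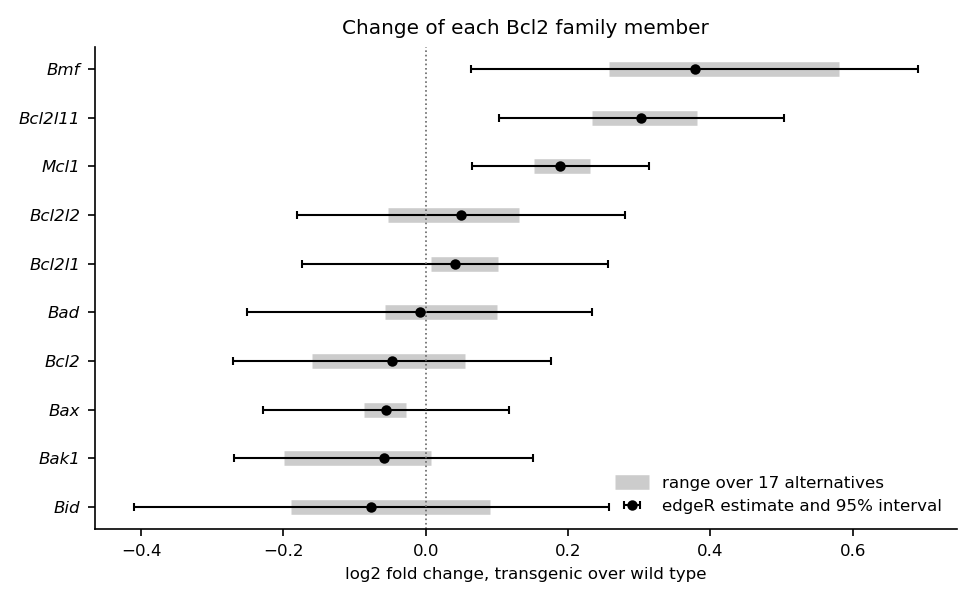
Log2 fold change of each member, transgenic over wild type (x axis), as the edgeR estimate with its 95% interval (black), over the range of 17 alternative analyses (grey). Bmf, Bcl2l11 and Mcl1 lie at 0.38, 0.30 and 0.19 and stay above 0 in all 17, and the intervals of the other 7 members include 0.

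Together the 10 members held 987, 981 and 956 CPM in transgenic and 891, 932 and 827 CPM in wild-type libraries, without overlap. Mcl1 makes up the largest term of this sum, at means of 410 CPM in transgenic and 359 CPM in wild-type libraries. Bmf averaged 167 CPM in transgenic and 129 CPM in wild-type libraries. Of the 10 members 5 had a log2 fold change above 0 and 5 below, so the sum does not show a change of the whole family. Per length, the pro-survival genes summed to 194 ± 7.97 FPKM in transgenic and 178 ± 8.70 FPKM in wild-type libraries, and the BH3-only genes to 96.5 ± 10.7 FPKM in transgenic and 82.5 ± 8.04 FPKM in wild-type libraries (SD, n = 3 each). The effectors made up 16.2, 16.9 and 17.2% of the members' FPKM in transgenic and 19.8, 17.9 and 20.9% in wild-type libraries, without overlap. In CPM the same share overlapped, at 7.80, 8.88 and 8.64% in transgenic and 10.02, 8.73 and 10.4% in wild-type libraries, as did the summed effector FPKM, at 55.5, 58.8 and 61.5 in transgenic and 65.5, 56.7 and 67.4 in wild-type libraries. A Bak1 model of 416 bases supplied 0, 1.14 and 0 FPKM in transgenic and 3.70, 0.600 and 2.35 FPKM in wild-type libraries. The pro-survival share of FPKM overlapped, at 55.6 ± 3.09% in transgenic and 54.9 ± 1.53% in wild-type libraries.

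Ratios between a pro-survival gene and Bcl2l11 were compared within each library. Bcl2 over Bcl2l11 was 2.71, 1.81 and 2.39 in transgenic and 3.20, 2.75 and 2.82 in wild-type libraries, as a ratio of CPM. Bcl2l1 over Bcl2l11 was 0.406, 0.353 and 0.374 in transgenic and 0.461, 0.440 and 0.454 in wild-type libraries. Both ratios were lower in every transgenic library, for Bcl2 by a narrow gap. Both have as denominator Bcl2l11, itself higher in CPM in every transgenic library. Mcl1 over Bcl2l11 overlapped, at 7.07, 5.98 and 6.81 in transgenic and 7.74, 6.45 and 7.32 in wild-type libraries. With Bmf as the denominator the groups overlapped too, Bcl2 over Bmf at 1.06, 0.649 and 0.881 in transgenic and 1.31, 0.941 and 1.27 in wild-type libraries, and Mcl1 over Bmf at 2.78, 2.14 and 2.50 in transgenic and 3.16, 2.21 and 3.29 in wild-type libraries. Bmf over Bcl2l11 overlapped as well, at 2.68 ± 0.126 in transgenic and 2.53 ± 0.352 in wild-type libraries (SD, n = 3 each).

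Transcript values rest on the authors' software, which divided the fragments of a gene among its transcripts. Of the 48 transcripts 35 passed the filter, and edgeR called none, as it called none of all 38358 transcripts tested, a share of 0.0%. At an unadjusted p under 0.05 there were 2 member transcripts, where 5.6% of all tested transcripts were. DESeq2 called none of the members' transcripts, 3 being at an unadjusted p under 0.05, and 0.888% of all transcripts it adjusted over. In the authors' deposited table none of the 48 was marked significant, and the main Bmf transcript came nearest, at q = 0.221 and 0.41 on the log2 scale.

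The main coding transcripts of Mcl1, Bcl2l11 and Bmf had log2 fold changes close to those of the genes. Mcl1-201, of 331 codons, differed by 0.20 ± 0.05 on the log2 scale (SE; edgeR, unadjusted p = 0.00593, adjusted p = 0.679). The Bcl2l11 transcript that encodes the 196 codons of the long Bim form, Bim-EL, had 0.34 ± 0.11 (SE; edgeR, adjusted p = 0.780). Bmf-201, of 271 codons, had 0.39 ± 0.16 (SE; edgeR, adjusted p = 0.891). Other Bcl2l11 transcripts had like values with wider errors, such as 0.36 ± 0.28 for Bcl2l11-202 and 0.35 ± 0.35 for Bcl2l11-208 (SE). Their unadjusted p were 0.247 and 0.355 (edgeR). With such errors they cannot show whether the difference was shared by several transcripts. The 196-codon form took 62.6, 53.2 and 50.8% of the Bcl2l11 FPKM in transgenic and 53.3, 52.1 and 48.0% in wild-type libraries, which overlapped. The 140-codon form, Bim-L, took 5.29 ± 1.92% in transgenic and 5.16 ± 3.66% in wild-type libraries (SD, n = 3 each).

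The 110-codon form of Bcl2l11, Bim-S, was scarce in both groups, at 0.795, 0.0 and 1.29% of the gene's FPKM in transgenic and 8.82, 1.38 and 3.79% in wild-type libraries. These values did not overlap. Among tested transcripts of genes with several, the share did not overlap for 4 of 34 in the members, where it did not for 10.3% of all 33049, so the members' count is near the background. Its main transcript, Bcl2l11-201, had 0, 0 and 21.8 fragments in transgenic and 140.6, 26.9 and 60.2 in wild-type libraries, and the difference was not called (edgeR, unadjusted p = 0.136).

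For Bcl2 the 236-codon form, which carries the membrane anchor, took 80.3, 77.3 and 74.2% in transgenic and 85.5, 85.1 and 78.6% in wild-type libraries. The remainder was the 199-codon form, whose ranges overlapped between the groups. Bcl2l1 was mostly Bcl-xL, the 233-codon form, at 70.4 ± 5.67% in transgenic and 73.4 ± 8.21% in wild-type libraries (SD, n = 3 each). Mcl1 was mostly the 331-codon form, at 92.4 ± 2.22% in transgenic and 88.6 ± 6.64% in wild-type libraries.

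For Bad the shares of some transcripts did not overlap between the groups, while the gene's CPM did. Its 162-codon form took 41.1, 57.5 and 52.0% of the FPKM in transgenic and 70.3, 71.3 and 60.4% in wild-type libraries, and models with a partial coding sequence took 32.2, 28.4 and 28.6% in transgenic against 11.6, 2.74 and 15.4% in wild-type libraries. Neither pair of ranges overlapped, which reads against the same 10.3% of all transcripts. None of these Bad transcripts passed in edgeR, where the unadjusted p of the 162-codon transcript was 0.127 and that of each partial model 0.131. In Bak1 such divisions varied widely within each group. Its decay-marked transcript Bak1-201 was listed at 429.6, 341 and 0.0675 fragments in transgenic replicates 1, 2 and 3 and at 281, 580.1 and 163 in wild-type replicates 1, 2 and 3.

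**Figure D4:**
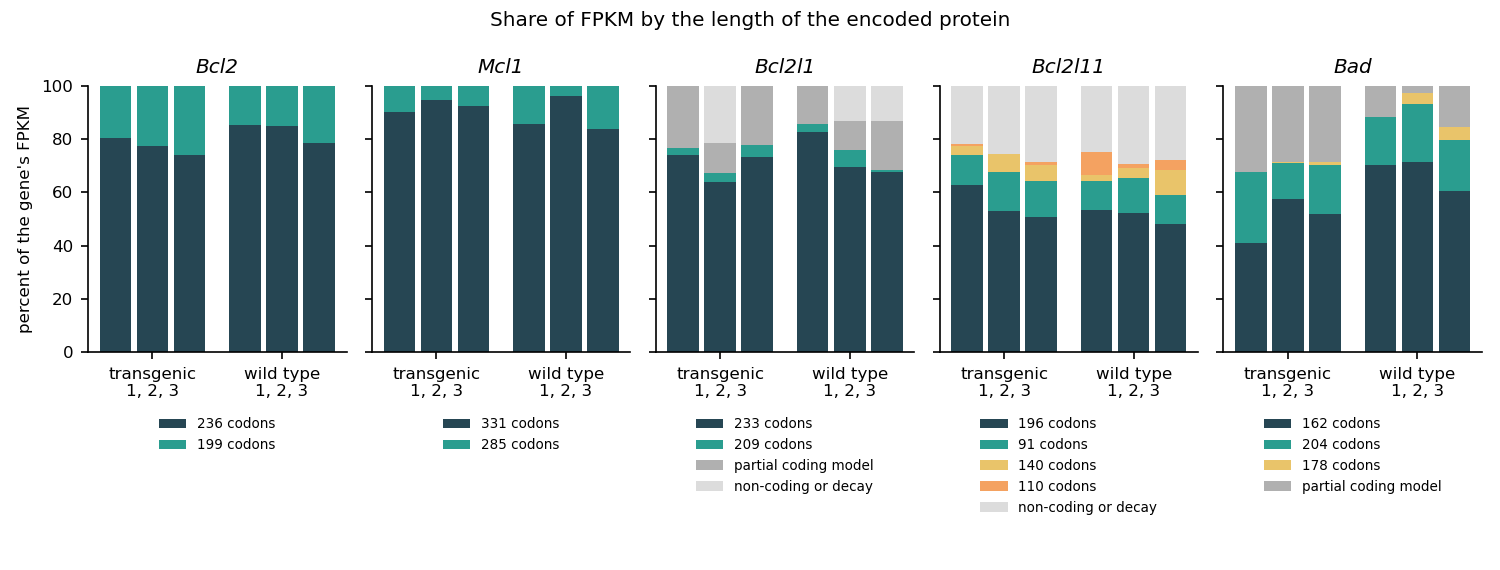
Percent of each gene's FPKM (y axis) by the number of codons of the encoded protein in GENCODE M21, for transgenic replicates 1 to 3 (left bars) and wild-type replicates 1 to 3 (right bars). Grey stands for models with a partial coding sequence and light grey for non-coding or decay-marked ones. In Bad the partial models take 28.4 to 32.2% in transgenic and 2.74 to 15.4% in wild-type libraries.

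Exons of 6 members overlap those of another annotated gene, and those of Mcl1, Bcl2l1, Bcl2l11 and Bmf do not. Bid shares 628 bases with Bcl2l13 on the opposite strand, which had 2770 to 3307 fragments, and Bcl2 shares 558 bases with the antisense gene D630008O14Rik, which had 282 to 505. Bad shares 524 bases with Gpr137, and Bak1 177 and 437 bases with Ggnbp1, both on the opposite strand. On the same strand, Bcl2l2 shares 594 bases with Gm20521 and Bax 192 bases with Gm45808. No source used here says whether counting used strand, so fragments of these overlaps cannot be assigned with certainty.

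The family's other genes were mostly low. Of 15 further Bcl2 family genes 9 were tested and none was called by edgeR or DESeq2. At an unadjusted p under 0.05 in edgeR 1 was lower, where 7.7% of all tested genes were. Bcl2l12, a divergent family member, had 30.4 ± 1.94 CPM in transgenic and 35.2 ± 0.907 CPM in wild-type libraries (SD, n = 3 each), a log2 fold change of -0.21 ± 0.08 (SE). Bnip3l, a mitophagy receptor, had 106 ± 6.55 CPM in transgenic and 97.0 ± 3.21 CPM in wild-type libraries. The p53-induced BH3-only gene Bbc3, which encodes Puma, was low, at 8.94 ± 1.12 CPM in transgenic and 7.51 ± 1.53 CPM in wild-type libraries, and Pmaip1, which encodes Noxa, lower still, at 1.34 ± 0.559 CPM in transgenic and 1.19 ± 0.823 CPM in wild-type libraries, both chosen after their values were seen. Bcl2l10 had no fragment in any library.

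Downstream of the mitochondria, none of 18 tested genes of the apoptosome, the caspases and their inhibitors was called by edgeR, with 5 lower and none higher at an unadjusted p under 0.05, where 7.7% of all tested genes were lower at that level. DESeq2 called 2 lower, Cycs (adjusted p = 0.0273) and Birc5 (adjusted p = 0.0375), where it called 3.07% of genes lower. Cycs, cytochrome c, had 102 ± 5.31 CPM in transgenic and 124 ± 11.3 CPM in wild-type libraries, a log2 fold change of -0.28 ± 0.07 (SE). Birc5, survivin, which also serves in mitosis and was chosen after its values were seen, differed by -0.39 ± 0.13 on the log2 scale (SE).

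Of 19 regulators of the family and of thymocyte survival, none was called by edgeR. At an unadjusted p under 0.05 in edgeR 2 were higher, where 5.71% of all tested genes were. Foxo3, a forkhead factor known to activate Bcl2l11 and Bbc3, had 217 ± 8.68 CPM in transgenic and 188 ± 12.2 CPM in wild-type libraries without overlap, a log2 fold change of 0.21 ± 0.06 (SE). Myb, a progenitor transcription factor, had 969 ± 74.7 CPM in transgenic and 832 ± 64.9 CPM in wild-type libraries, with 0.22 ± 0.07 (SE). DESeq2 called both higher (adjusted p = 0.0440 for each), where it called 1.55% of genes higher. Il7r, a receptor chain whose signal sustains Bcl2, had 89.0 ± 2.54 CPM in transgenic and 94.4 ± 12.5 CPM in wild-type libraries, and Trp53, which encodes p53, 97.6 ± 6.19 CPM in transgenic and 98.2 ± 5.85 CPM in wild-type libraries, both chosen after their values were seen.

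**Figure D5:**
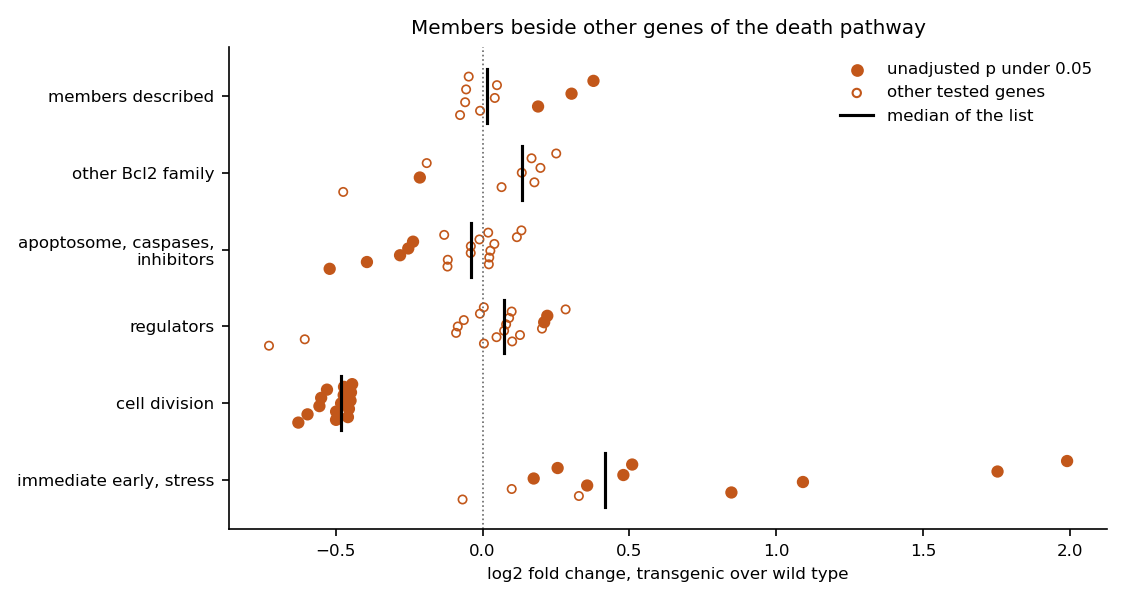
Log2 fold change of each tested gene, transgenic over wild type (x axis), for the 10 members, further family members, downstream genes, regulators, and the cell division and immediate early lists. Filled points have an unadjusted p under 0.05 and bars mark medians. The members' median lies at 0.02, that of cell division at -0.48 and that of immediate early and stress genes at 0.42.

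In the cell division, stress and later-stage lists edgeR called none. In that order, 15 were lower, 9 higher and 4 lower at an unadjusted p under 0.05 in edgeR. Of all tested genes 7.7% were lower and 5.71% higher at that level. DESeq2 called 14 lower, 2 higher and 4 lower, where it called 3.07% of genes lower and 1.55% higher. All 15 listed cell division genes lay below 0, with summed levels of 2550 to 3094 CPM in transgenic and 3343 to 4394 CPM in wild-type libraries, and 11 of the 15 did not overlap. Ccnb2, a mitotic cyclin, had 59.2 ± 6.19 CPM in transgenic and 83.7 ± 7.20 CPM in wild-type libraries, and the checkpoint kinase gene Bub1b 195 to 225 CPM in transgenic and 254 to 317 CPM in wild-type libraries. Among 12 immediate early and stress genes tested, 11 were above 0. The list's sums overlapped, at 5615 to 5969 CPM in transgenic and 5377 to 5976 CPM in wild-type libraries. They were mostly Hspa8, the 1 gene below 0, at 4881 ± 43.2 CPM in transgenic and 5116 ± 320 CPM in wild-type libraries. The sums therefore say little about the other genes. Jund, a subunit of AP-1, had 113 ± 11.9 CPM in transgenic and 80.8 ± 4.25 CPM in wild-type libraries, and the heat shock gene Hspa1b 156 ± 92.4 CPM in transgenic and 46.4 ± 17.6 CPM in wild-type libraries. Of 7 genes of stages after beta selection 6 lay below 0, with sums of 213 to 232 CPM in transgenic and 218 to 251 CPM in wild-type libraries. These sums were mostly Cd27, the 1 gene above 0, at 153 ± 4.95 CPM in transgenic and 137 ± 14.8 CPM in wild-type libraries. Cd8b1, a chain of the CD8 coreceptor, had 4.03 ± 1.47 CPM in transgenic and 8.97 ± 1.76 CPM in wild-type libraries. The part of these lists in the values of Bcl2l11, Mcl1 and Bmf was not tested.

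The pattern of a member over the 6 libraries was set beside that of 9034 genes with a mean of at least 10 CPM. Nearest to Bcl2l11 in Pearson's r of log2 CPM were Nfxl1 (0.973), Ormdl3 (0.970) and Prodh (0.955), and nearest to Bcl2 were Ppic (0.998), Aamp (0.997) and Nudt13 (0.994). Each r rests on only 6 libraries. Of the 9034 genes 43 had an r over 0.9 with Bcl2l11 and 48 with Bcl2. The r values are a description of shared library order.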

How the data were processed

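Total RNA of DN3a thymocytes was depleted of ribosomal RNA before library preparation, per the labels' protocols. The submitters' processing notes name TopHat2, Cuffdiff and mm10. Neither notes nor labels name the annotation or versions. For each transcript in each library the authors deposited an expected count (an estimated count of fragments, not normalized). An FPKM value beside it was also deposited. The authors' own comparison was deposited as a log2 fold change with its p-value and q-value. A scaled-fragment signal and a test-statistic score that the authors deposited were not used. Columns of per-sample values that matched no labelled sample numbered 0.

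Expected counts were summed per symbol and rounded. The 197 genes with a failed estimate (466 transcripts) were left out, which touched no member. The filter was filterByExpr, with a count of at least 10 and a total of at least 15. After TMM scaling, 3 transgenic were compared with 3 wild-type libraries in edgeR 4.0.16 under R 4.3.3 (quasi-likelihood, two-sided), with Benjamini-Hochberg adjustment over all 14653 genes and a threshold of 0.05. The same test was run on transcripts. Standard errors derive from the F statistic, and 95% intervals use 9.61 degrees of freedom. The spread between libraries, as edgeR's common coefficient of variation, was 19.5%. The code was tested on simulated data.

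Alternatives used DESeq2 1.42.0, limma 3.58.1 on log2 FPKM after adding 0.1, 0.5 or 1 (genes averaging 1 FPKM or more), other scaling and filters, a replicate block, a covariate for or removal of libraries with Y-linked RNA, and each library left out. Positions and coding lengths are from GENCODE M21 on GRCm38, the mm10 coordinates, and promoters from RefSeq. Of the 48 member transcripts 47 were found in M21. The members and lists were chosen with earlier results of these data known. The rule named all members and Gata3, and from each other list the called genes or the 2 with the smallest p, of which 1 gene is not reported here.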

Additional observations from a re-analysis of the deposited data

How the results depend on the processing

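Bcl2l1, Mcl1, Bcl2l11 and Bmf kept a log2 fold change above 0, and Bax one below 0, in all 17 alternatives, over 0.0069 to 0.10 for Bcl2l1, 0.15 to 0.23 for Mcl1, 0.23 to 0.38 for Bcl2l11, 0.26 to 0.58 for Bmf and -0.09 to -0.03 for Bax. The number of members called was 0 in each alternative but DESeq2, which called 2. The cause was not tested. The adjusted p ran from 0.0256 to 0.537 for Mcl1, 0.0407 to 0.520 for Bcl2l11 and 0.0678 to 0.608 for Bmf. Members at an unadjusted p under 0.05 numbered 1, not 3, in each limma fit on log2(FPKM + 0.1), log2(FPKM + 0.5) and log2(FPKM + 1), where Bad was 0.10 and Bcl2 0.027, 0.027 and 0.026, above 0. Without the libraries with Y-linked RNA, Bcl2l2 was -0.054. With 1 library left out, signs also turned within -0.16 to 0.056 for Bcl2, -0.024 to 0.13 for Bcl2l2, -0.14 to 0.0074 for Bak1, -0.057 to 0.075 for Bad and -0.19 to 0.091 for Bid, members that were not called anywhere. The number of members at an unadjusted p under 0.05 was then 2 to 3. Over all genes edgeR called 2, and 14 with the replicate number as a block, 92 with failed loci kept, 127 with no filter, 256 with a covariate for Y-linked RNA, 260 without the libraries that carry it and 498 without wild-type replicate 1, against 477 in DESeq2 and 4, 2 and 2 in limma. No transcript of a member was called in any of 9 alternatives. Whether the replicate numbers pair the samples was not settled. The deviations of same-numbered libraries correlated at 0.263, 0.437 and -0.065 over 9034 genes. Transgenic replicates 1 and 2 correlated best with their own number, and transgenic replicate 3 with wild-type replicate 1 (0.152). With that block 0 members were called, and Bmf had an adjusted p of 0.0678 (edgeR). The lowest member count in a library was 740, and the part of counting error in the spread was not tested. Mcl1 had a smaller p than Bcl2l11 in DESeq2, 0.000819 and 0.00167, and Bmf the smallest p of the 3 with the block.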
